A study of Rattus norvegicus with 8 samples.

Results

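Endothelial junction and surface genes were followed in the livers of cirrhotic male Wistar rats, on 4 arrays labelled antiangiogenic treatment and 4 labelled vehicle. The set names 10 genes: Cldn5, Pecam1, Cdh5, Esam, Icam2, Robo4, Egfl7, Plvap, Vwf and Aqp1. A probe set belonged to it if the platform annotation gave it exactly 1 gene symbol and that symbol was one of the 10. This found 11 probe sets for 8 genes, of 31042 probe sets and 14217 genes with 1 symbol in all. Cdh5 and Robo4 had no probe set under that symbol, so they have no value here. Aqp1, Egfl7 and Icam2 had 2 probe sets each, and the other 5 genes had 1.

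All 8 livers came from rats made cirrhotic with inhaled carbon tetrachloride (CCl4), a liver toxin, and kept on drinking water containing phenobarbital at 0.3 g/L, an inducer of the liver enzymes that activate CCl4. The treated rats received angiogenesis inhibitors, agents meant to limit new vessel growth, and the labels name neither the agents nor their doses and duration. The control rats are labelled vehicle, while the series design text calls them non-treated, and differences below are against the rats so labelled. The labels give no age, and rats without cirrhosis were not analysed here. RNA of whole frozen liver was hybridized to Affymetrix Rat2302 arrays, and values are log2 intensities after robust multi-array averaging (RMA).

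Endothelial cells line every vessel and meet at junctions that control what crosses the wall. VE-cadherin (Cdh5) forms the adherens junction, claudin-5 (Cldn5) is the main endothelial claudin of the tight junction, and PECAM-1, ESAM and ICAM-2 are immunoglobulin-type adhesion molecules of the cell border that leukocytes use to cross it. Healthy liver sinusoids are lined by a fenestrated endothelium without a continuous tight junction, and in cirrhosis it is known to lose its fenestrae and take on features of ordinary capillaries. Several of the genes are also active outside endothelium: Pecam1 and Icam2 in leukocytes and platelets, Esam and Vwf in platelets and their precursors, and Aqp1 in bile duct cells and red cells.

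Treated 3 and vehicle 4 were nearly the same array, although their labels put them in different groups. Across all probe sets (not independent of each other) the correlation of this pair was 0.996, compared with 0.956 to 0.988 for the remaining 27 pairs of arrays. Each stayed in its labelled group, and the member differences and list medians are also given over the 6 arrays without them. BioB and BioC, bacterial transcripts spiked into each sample, grouped the arrays into 3 sets. BioC exceeded BioB by 1.32 on treated 1 and 1.48 on vehicle 1, and differed from it by −0.06 to 0.10 on the other 6 arrays. Of these 6, treated 3 and vehicle 4 had the highest BioB levels (8.87 and 8.97), above treated 2 and 4 (8.08 and 7.81) and vehicle 2 and 3 (7.52 and 7.43). BioB was not equal within the sets, and stood at 7.97 on treated 1 and 7.39 on vehicle 1. The log2 ratio of 3′ to 5′ Gapdh control probe sets, a sign of RNA integrity, was 0.288 ± 0.114 in treated and 0.301 ± 0.113 in vehicle livers (SD; exact permutation p = 0.914, two-sided, n = 4 per group). The beta-actin control probe sets gave a higher ratio, 1.82 ± 0.06 in treated and 1.83 ± 0.09 in vehicle livers (exact permutation p = 0.857). Tissue identity was checked with 14 measured hepatocyte genes, albumin among them, whose mean level lay between 13.06 and 13.44 on treated arrays and between 13.31 and 13.51 on vehicle arrays. In the whole table, 0 of 31042 probe sets (0%) passed an adjusted p of 0.05 in limma (Benjamini-Hochberg), and 1220 had an unadjusted p under 0.05 (3.93%). Without treated 3 and vehicle 4, 3 probe sets passed the adjusted threshold (0.00966%).

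All 8 measured genes averaged lower in treated livers on the probe set used for the gene, the brighter one where there were 2. Their median difference was −0.54 on the log2 scale, and −0.70 over the 6 arrays. Over all 14217 genes, 48.4% were lower and the median difference was 0.0061. The genes were chosen on the treated-minus-vehicle differences of these same arrays, so their values are a description and the set as a whole was given no test. As no probe set was called over the 8 arrays, 0 of the 11 member probe sets were. Over the 6 arrays 3 probe sets were called in all (0.00966%), and 1 of the 11, that of Cldn5, was among them. Nothing can be read from this call, because the choice of genes used the difference. In bulk liver, fewer endothelial cells and less RNA per cell cannot be told apart.

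The groups overlapped at all 11 member probe sets (0 without overlap, against 0.58% of all probe sets without overlap and lower in treated livers). Over the 6 arrays, 8 of the 11 were lower in treated livers without overlap, against 4.41% of all probe sets. These were the probe sets of Cldn5, Esam, Egfl7, Plvap and Aqp1 and the brighter one of Icam2, while Pecam1, Vwf and the dim Icam2 probe set still overlapped. Nothing can be read from this contrast with the background, because the choice of genes used it.

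**Figure D1:**
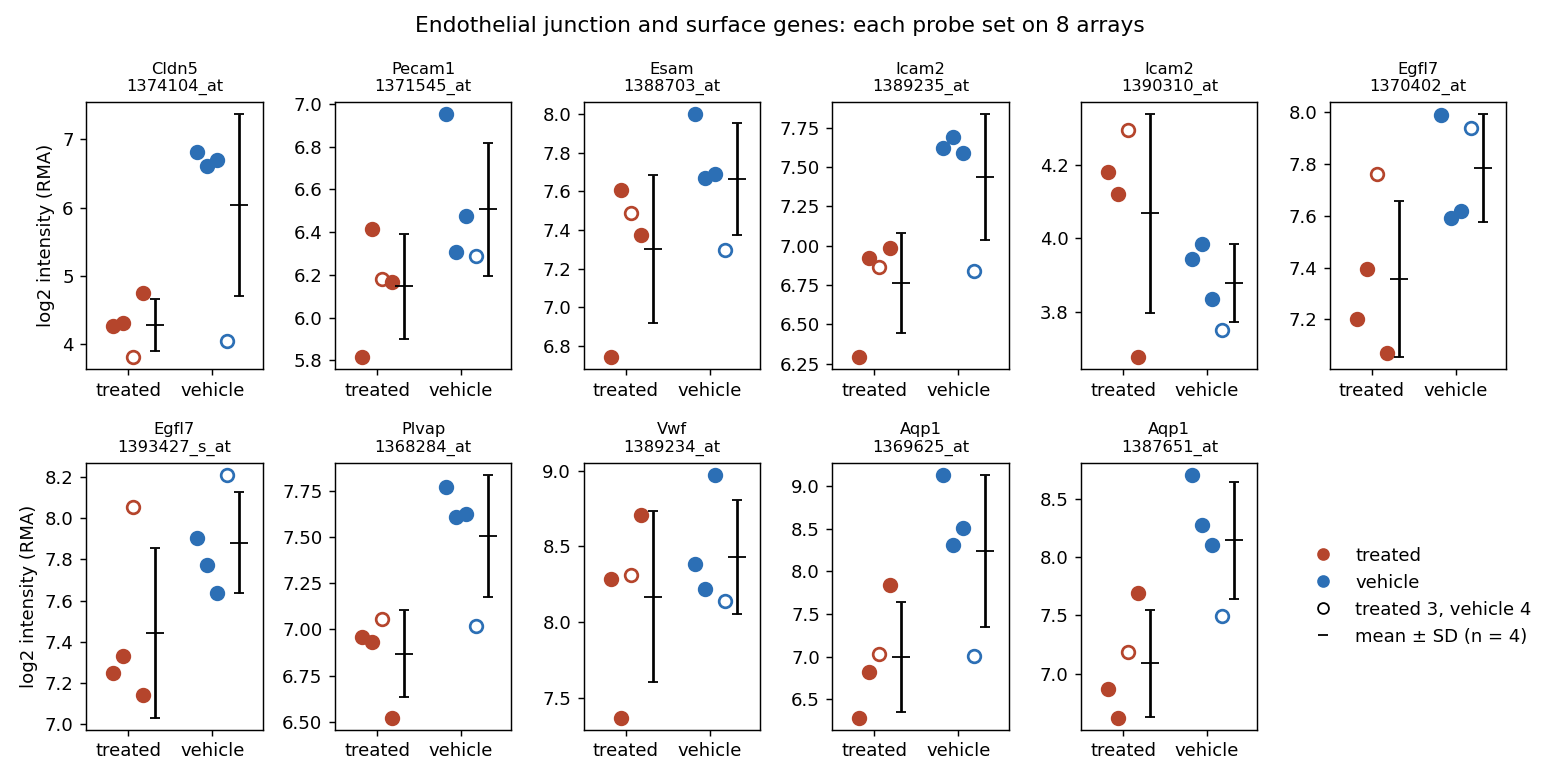
Log2 intensity of each of the 11 member probe sets (1 panel each, with its own vertical scale) on the 4 treated (left) and 4 vehicle (right) arrays; open circles are the nearly identical treated 3 and vehicle 4, and the bar is the mean with its SD. For Cldn5, vehicle 1 to 3 lie between 6.60 and 6.82 while vehicle 4 lies at 4.05, within the treated range of 3.81 to 4.75.

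Cldn5, whose protein seals endothelial tight junctions, had the largest difference of the 8 genes. Probe set 1374104_at stood at 4.27, 4.31, 3.81 and 4.75 on treated 1 to 4, against 6.82, 6.60, 6.69 and 4.05 on vehicle 1 to 4. Vehicle 1 to 3 were high, and vehicle 4 lay among the treated arrays. The means were 4.29 ± 0.38 in treated and 6.04 ± 1.33 in vehicle livers (SD, n = 4 each), a level 3.38-fold lower in treated livers (difference −1.76, SE 0.57, 95% interval −3.05 to −0.46). Over the 6 arrays they were 4.44 ± 0.27 and 6.70 ± 0.11 (n = 3 each), 4.80-fold lower (difference −2.26, 95% interval −2.66 to −1.87). The spread over vehicle 1 to 3 was small, so that nearly all of the vehicle SD over 4 arrays came from vehicle 4. Treated 3, at 3.81, was at or below the 25th percentile of its array (3.91), where signal is close to background. This held for 1 of the 8 arrays. A fold measured against values this low tends to be understated, while a difference used to choose genes tends to be overstated.

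The Cldn5 promoter window is shown because this gene led the set. The sequence runs from 250 bases before to 50 after the RefSeq start (rat assembly GRCr8, chr11:95718549-95718848, minus strand), and the capitals mark matches to the motifs searched. Both strands of each window were searched for 5 short motifs, and their background is the share of all 33469 RefSeq windows that hold them. The ETS core, spelled AGGAAG and bound by a factor family active in endothelial genes, was found in 34.5% of windows. The GATA motif, spelled TGATAA, was found in 9.03% of them. The GC box, spelled GGGCGG, was found in 33.1% of windows. The TATA box, spelled TATAAA, was found in 14.2% and the KLF-type box, spelled CCACCC, in 29.4% of windows.
Cldn5: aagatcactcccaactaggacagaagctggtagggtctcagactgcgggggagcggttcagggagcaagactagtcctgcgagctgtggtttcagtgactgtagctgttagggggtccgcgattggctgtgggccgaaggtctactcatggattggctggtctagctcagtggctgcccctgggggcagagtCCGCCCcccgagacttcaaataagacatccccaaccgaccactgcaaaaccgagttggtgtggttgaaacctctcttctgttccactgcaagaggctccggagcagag
The only match in the Cldn5 window was 1 GC box on the strand opposite to the printed one, where it reads CCGCCC, starting at position −58 relative to the start.

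Pecam1, an adhesion molecule concentrated where endothelial cells touch, differed little. Probe set 1371545_at stood at 5.82, 6.42, 6.18 and 6.17 on treated 1 to 4, against 6.95, 6.31, 6.48 and 6.29 on vehicle 1 to 4. The difference was −0.36 (SE 0.18, 95% interval −0.78 to 0.05), and −0.44 over the 6 arrays (−0.98 to 0.09). Treated 1 was the lowest and vehicle 1 the highest array, and treated 2 lay above vehicle 2 and vehicle 4. Without vehicle 1 the difference was −0.21.

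Esam, a tight-junction-associated adhesion molecule of endothelium and platelets, showed a similar size of difference. Probe set 1388703_at stood at 6.74, 7.61, 7.49 and 7.37 on treated 1 to 4, against 8.00, 7.67, 7.69 and 7.30 on vehicle 1 to 4. Treated 1 was low, vehicle 1 was high, and the other 6 arrays lay between 7.30 and 7.69. The difference was −0.36 (SE 0.21, 95% interval −0.85 to 0.12), −0.17 without treated 1, and −0.55 over the 6 arrays (−1.12 to 0.03).

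Icam2, a ligand of leukocyte integrins that is present on resting endothelium, had 2 probe sets that disagreed. The brighter, 1389235_at, stood at 6.29, 6.92, 6.86 and 6.99 on treated 1 to 4, against 7.62, 7.69, 7.59 and 6.84 on vehicle 1 to 4. As for Cldn5, vehicle 1 to 3 lay close together and above every treated array, with vehicle 4 inside the treated range. The difference was −0.67 (SE 0.23, 95% interval −1.18 to −0.16), 1.59-fold lower in treated livers, and −0.90 over the 6 arrays (−1.38 to −0.42). The other probe set, 1390310_at, stood between 3.68 and 4.29 on treated and between 3.75 and 3.99 on vehicle arrays, and was at or below the 25th percentile on 2 arrays. Its difference was 0.19 (95% interval −0.14 to 0.52), 0.07 over the 6 arrays, 0.11 without treated 3 and 0.32 without treated 4. A probe set this dim carries little information on Icam2.

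Egfl7, a secreted protein that endothelial cells deposit in the matrix around growing vessels, was measured alike by its 2 probe sets. Probe set 1370402_at stood at 7.20, 7.39, 7.76 and 7.07 on treated 1 to 4, against 7.99, 7.59, 7.62 and 7.94 on vehicle 1 to 4. Probe set 1393427_s_at, whose suffix marks probes that may match more than 1 transcript, stood at 7.25, 7.33, 8.05 and 7.14, against 7.91, 7.77, 7.64 and 8.21. The nearly identical arrays were high here: treated 3 was the highest treated array on both probe sets, and vehicle 4 was the highest of all 8 on the second and the next highest on the first. This is the opposite of Cldn5, for which treated 3 and vehicle 4 were the lowest arrays of all. The differences were −0.43 (SE 0.17, 95% interval −0.82 to −0.04) and −0.44 (SE 0.21, −0.92 to 0.05), and over the 6 arrays −0.51 (−0.90 to −0.13) and −0.53 (−0.83 to −0.22).

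Vwf, the von Willebrand factor that endothelium stores and releases to capture platelets, had the smallest difference of the 8 genes. Probe set 1389234_at stood at 8.28, 7.37, 8.31 and 8.71 on treated 1 to 4, against 8.38, 8.22, 8.97 and 8.14 on vehicle 1 to 4. Treated 2 was far below the other arrays, which overlapped between the groups. The difference was −0.26 (SE 0.29, 95% interval −0.92 to 0.40) and −0.41 over the 6 arrays (−1.28 to 0.47). Leaving out treated 2 gave 0.0039, leaving out vehicle 3 gave −0.08 and leaving out treated 4 gave −0.44, so its sign rested on treated 2.

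Plvap, the protein of the diaphragms that span endothelial fenestrae and caveolae, was lower in treated livers with little spread. Probe set 1368284_at stood at 6.96, 6.93, 7.06 and 6.52 on treated 1 to 4, against 7.77, 7.61, 7.62 and 7.02 on vehicle 1 to 4. The groups overlapped only through the nearly identical pair, with treated 3 at 7.06 and vehicle 4 at 7.02. The means were 6.87 ± 0.24 and 7.50 ± 0.33 (SD, n = 4 each), 1.55-fold lower in treated livers (difference −0.64, SE 0.19, 95% interval −1.06 to −0.21). Over the 6 arrays the difference was −0.86 (−1.23 to −0.49).

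Aqp1, a water channel of endothelium, bile ducts and red cells, had the next largest difference after Cldn5 on both of its probe sets. Probe set 1387651_at stood at 6.87, 6.63, 7.19 and 7.69 on treated 1 to 4, against 8.70, 8.28, 8.10 and 7.50 on vehicle 1 to 4. Probe set 1369625_at stood at 6.29, 6.81, 7.03 and 7.84, against 9.13, 8.31, 8.50 and 7.01. On both, vehicle 1 to 3 were above every treated array, vehicle 4 lay inside the treated range, and treated 4 was the highest treated array. The first was 2.07-fold lower in treated livers (difference −1.05, SE 0.29, 95% interval −1.71 to −0.40) and the second 2.37-fold lower (−1.24, SE 0.46, −2.28 to −0.21). Over the 6 arrays the differences were −1.30 (−2.02 to −0.58) and −1.67 (−2.65 to −0.68).

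The promoter windows of Plvap (GRCr8, chr16:18231230-18231529, minus strand) and Aqp1 (GRCr8, chr4:85812534-85812833, plus strand) are shown because these genes were the 2 largest differences after Cldn5 among the 4 measured genes with a window in the RefSeq table. The capitals again mark motif matches on either strand.
Plvap: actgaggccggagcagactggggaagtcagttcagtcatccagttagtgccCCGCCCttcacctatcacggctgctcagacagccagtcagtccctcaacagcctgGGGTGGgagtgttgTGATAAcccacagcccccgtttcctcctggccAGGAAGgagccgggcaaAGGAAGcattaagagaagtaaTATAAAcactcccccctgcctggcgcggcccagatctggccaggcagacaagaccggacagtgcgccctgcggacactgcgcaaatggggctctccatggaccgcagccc
Aqp1: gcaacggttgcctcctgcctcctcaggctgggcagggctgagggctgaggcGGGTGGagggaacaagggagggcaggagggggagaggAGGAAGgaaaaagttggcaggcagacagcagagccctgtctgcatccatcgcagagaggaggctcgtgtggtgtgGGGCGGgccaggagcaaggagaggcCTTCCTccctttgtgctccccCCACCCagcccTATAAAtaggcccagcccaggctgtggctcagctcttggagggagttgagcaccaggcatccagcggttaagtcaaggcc
Both windows held the ETS core at 2 places and a TATA box, at −60 in Plvap and −30 in Aqp1, neither of which was found in the Cldn5 window. Plvap also held the GATA motif at −130. Windows were given for 5 of the 10 genes, with 2 starts for Egfl7. Of these 6 windows 4 held the ETS core, 2 the GATA motif, 4 the GC box, 2 the TATA box and 5 the KLF-type box, and in the second Egfl7 window a GC box overlapped a KLF-type box. A match is a description of the letters and shows no binding.

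**Figure D2:**
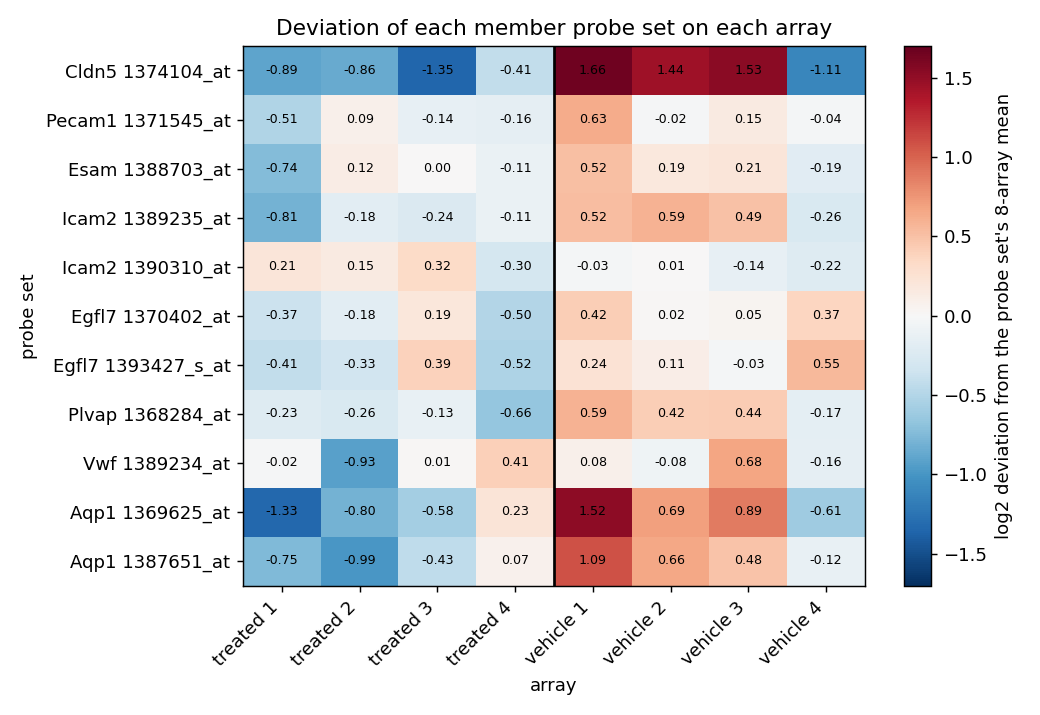
Deviation of each member probe set (rows) from its own 8-array mean on each array (columns, treated on the left of the line), in log2 units, red for above and blue for below. Vehicle 1 to 3 are mostly red and the treated arrays mostly blue, and on vehicle 4 Cldn5 lies at −1.11 while the second Egfl7 probe set lies at 0.55.

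The difference between the groups rested on vehicle 1 to 3. Averaged over the 8 genes, the level was 6.56, 6.69, 6.87 and 6.92 on treated 1 to 4, against 7.77, 7.52, 7.60 and 6.92 on vehicle 1 to 4. All 8 genes were above their own 8-array mean on vehicle 1, 6 on vehicle 2 and 7 on vehicle 3, but only 1 on vehicle 4, which was Egfl7. On treated 1 to 4, 0, 2, 3 and 2 of the 8 genes were above it. Between treated 3 and vehicle 4 the median difference of the 8 genes was −0.04. The spiked-in BioB set the same arrays apart, at 7.39 to 7.52 on vehicle 1 to 3 against 7.81 to 8.97 on all the others. Whether the member levels are tied to this technical difference was not tested.

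Within the sets of arrays with a like spike-in pattern, whose BioB levels were not equal, the genes differed by unequal amounts. Between treated 1 and vehicle 1 the median difference of the 8 genes was −1.20, and 10 of the 11 probe sets were lower on treated 1. Between treated 2 and 4 and vehicle 2 and 3 it was −0.62, with all 11 lower. Cldn5 differed by −2.55 in the first of these and by −2.12 in the second. Pecam1 differed by −1.14 and −0.10, and Esam by −1.26 and −0.19, so that their differences lay mainly between treated 1 and vehicle 1. Plvap differed by −0.81 and −0.89.

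**Figure D3:**
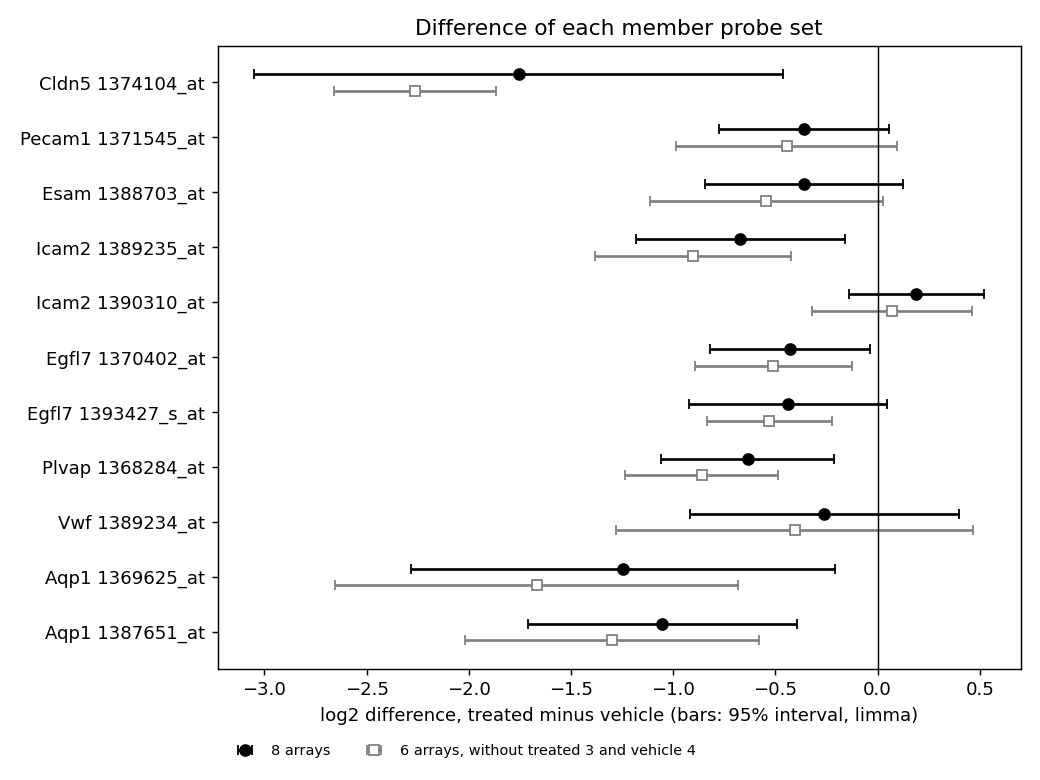
Log2 difference, treated minus vehicle, of each member probe set with its 95% interval from limma, over all 8 arrays (black circles) and over the 6 arrays without treated 3 and vehicle 4 (open squares). Cldn5 lies at −1.76 and −2.26, and the dim Icam2 probe set 1390310_at is the only one above 0.

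Other genes of endothelial identity stood beside the members. Of 30 listed, 29 were measured, and 27 were lower in treated livers with a median difference of −0.54 (−0.72 over the 6 arrays). Limma called 0 of them at an adjusted p of 0.05 and 15 had an unadjusted p under 0.05, against 3.93% of all probe sets. In this list 4 genes were lower without overlap (Nos3, Sox7, Adgrl4 and She), against 0.626% of all genes. The list was chosen with earlier results of these data known, so nothing can be read from these contrasts with the background. Adgrl4, an adhesion receptor of growing vessels, averaged 7.42 ± 0.34 in treated and 8.04 ± 0.07 in vehicle livers (difference −0.62, SE 0.16, limma adjusted p = 0.979). Sox7, a transcription factor of endothelial development, averaged 5.12 ± 0.35 and 5.84 ± 0.26 (−0.73, SE 0.20, limma adjusted p = 0.979), and Nos3, endothelial nitric oxide synthase, differed by −0.68. Tie1 and Tek, receptors of the angiopoietin system, differed by −0.56 and −0.54. Aplnr and S1pr1, both receptors of vessel signalling, were the 2 genes of the list with a difference above 0 (0.14 and 0.13). Aplnr was at or below the 25th percentile on all 8 arrays, where signal is close to background, so its difference carries little information.

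Sinusoidal endothelial markers were lower for 11 of the 12 genes measured, and their median was −0.64 (−0.86 over the 6 arrays). Limma called 0 of them, and 5 had an unadjusted p under 0.05. The background of this count, here and for the lists below, is 3.93% of all probe sets. These lists too were chosen with earlier results known, so nothing can be read from that contrast. Lyve1, a hyaluronan receptor of sinusoidal and lymphatic endothelium, averaged 8.76 ± 0.37 in treated and 10.02 ± 0.87 in vehicle livers (difference −1.26). Fcgr2b, an inhibitory Fc receptor, and Bmp2, a ligand of hepatic iron control, differed by −0.82 and −0.77. Of 5 lymphatic markers 4 were lower, with a median of −0.24 (−0.36 over the 6 arrays; 0 called, 1 at an unadjusted p under 0.05). Among these Ccl21, a chemokine that guides dendritic and T cells, differed by −2.86 (SE 0.97, limma adjusted p = 0.979), and by −3.84 over the 6 arrays, Pdpn, podoplanin, by −0.94, and Flt4, a VEGF receptor of lymphatics, by −0.19.

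Cytoplasmic and transmembrane junction partners, most of which epithelium also expresses, differed less. Of 25 measured, 18 were lower, and the median was −0.12 (−0.12 over the 6 arrays; 0 called, 1 at an unadjusted p under 0.05). Msn, moesin, which links the membrane to actin, averaged 7.41 ± 0.47 in treated and 8.23 ± 0.69 in vehicle livers (difference −0.81, SE 0.35). Gja4, a connexin of arterial endothelium, and Jam2, a junctional adhesion molecule, differed by −0.42 each. The catenin genes Ctnnb1, Ctnna1 and Ctnnd1, whose proteins anchor cadherins, differed by −0.12, −0.19 and −0.13, and Tjp1, the ZO-1 scaffold that binds claudins, by −0.12.

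Relatives of the members went in both directions. Of 15 other claudins 7 were lower and 8 higher (median 0.0030, and 0.019 over the 6 arrays; 0 called, 2 at an unadjusted p under 0.05). Cldn2, a pore-forming claudin of hepatocytes and bile ducts, averaged 8.63 ± 0.58 in treated and 8.08 ± 0.38 in vehicle livers (difference 0.55, SE 0.29), Cldn12 differed by 0.34 and the dim Cldn8 by −0.59. Of 11 other aquaporins 7 were lower (median −0.07, and 0.014 over the 6 arrays; 0 called, 0 at an unadjusted p under 0.05). Aqp9, the hepatocyte channel for water and glycerol, differed by 0.41, Aqp2 by −0.17 and Aqp11 by 0.32. The signs of the claudin and aquaporin medians turned under some alternatives.

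Robo4 had no value, and of 8 genes of the Robo and Slit guidance system 4 were lower (median −0.05, and −0.07 over the 6 arrays; 0 called, 0 at an unadjusted p under 0.05). Robo2 differed by −0.76, with an SE of 0.51, Slit3 by −0.28 and Slit1 by 0.19. The Slit1 probe set was dim, at or below the 25th percentile on 6 of the 8 arrays. Plvap resides in caveolae, and of 7 caveola genes 3 were lower (median 0.0018, and −0.011 over the 6 arrays; 0 called, 2 at an unadjusted p under 0.05). Cav1, the coat protein of caveolae, averaged 6.63 ± 0.77 in treated and 7.42 ± 0.26 in vehicle livers (difference −0.79), Cavin2 differed by −0.67, and Cav2, a second caveolin, went the other way by 0.70. The signs of both medians turned under some alternatives.

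**Figure D4:**
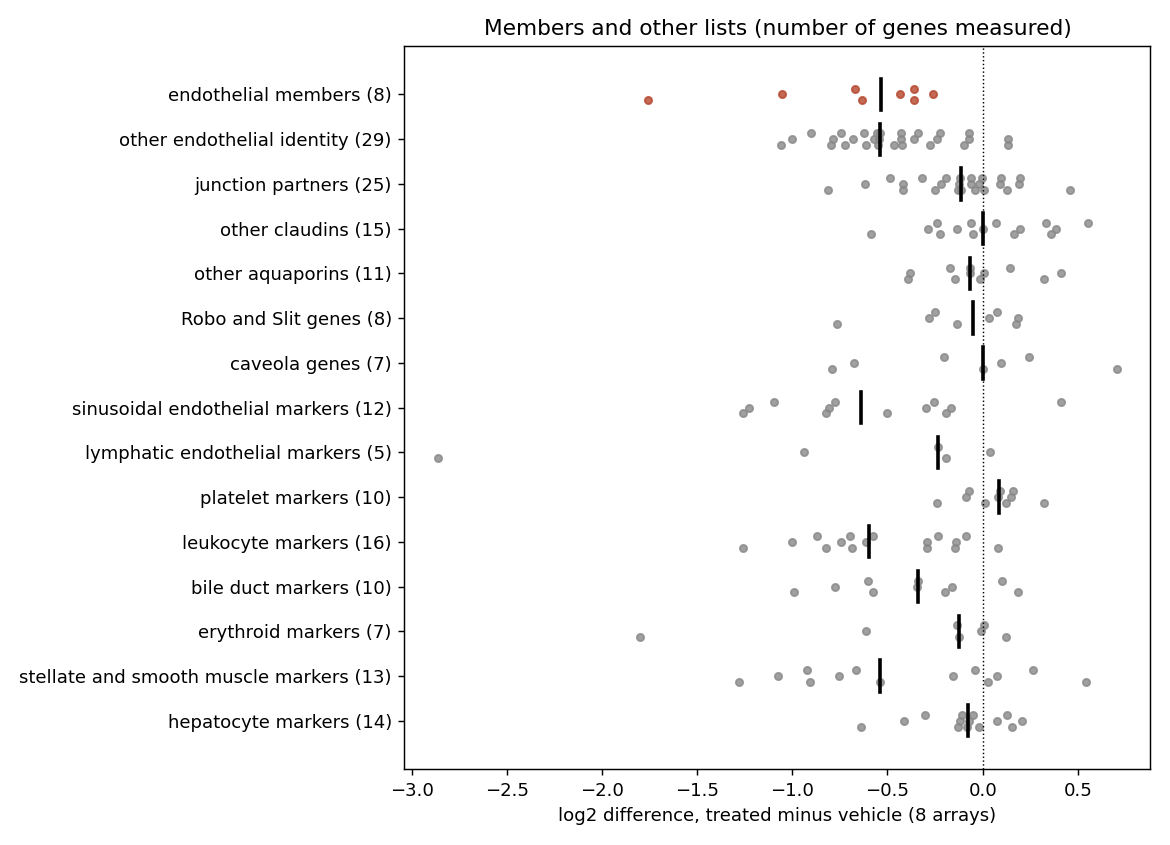
Log2 difference, treated minus vehicle, of each measured gene (points) in the member set (red, top) and in 14 other lists (grey), with the list median as a vertical line. The member median of −0.54 lies beside those of other endothelial identity (−0.54) and sinusoidal markers (−0.64), and the medians of claudins, aquaporins and caveola genes lie near 0.

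Markers of other cell types that express some members were in part lower as well. Platelet markers, which bear on Pecam1, Esam, Icam2 and Vwf, had 3 of 10 genes lower and a median difference of 0.09. This median was 0.036 over the 6 arrays, 0.15 without treated 4 and 0.040 without vehicle 3. Limma called 0 of the platelet markers, and 0 had an unadjusted p under 0.05. Their mean level lay between 5.84 and 6.02 on treated and between 5.82 and 5.93 on vehicle arrays. Itga2b and Itgb3, the platelet integrin chains, differed by 0.32 and −0.24, and Ppbp, a platelet chemokine, by 0.12. Leukocyte markers, which bear on Pecam1 and Icam2, had 15 of 16 genes lower and a median difference of −0.59 (−0.83 over the 6 arrays; 0 called, 4 at an unadjusted p under 0.05), and their mean level lay between 6.28 and 7.10 on treated and between 6.54 and 7.51 on vehicle arrays. Cd3e, a T cell receptor subunit, Coro1a, an actin regulator of leukocytes, and Cd37, a tetraspanin of lymphocytes, differed by −0.69, −1.26 and −0.75. Of the leukocyte markers 1, Cd52, was at or below the 25th percentile on every array, and of the platelet markers 0 were. The part of leukocytes in the Pecam1 and Icam2 differences was not tested.

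Bile duct markers, which bear on Aqp1, had 8 of 10 genes lower and a median difference of −0.34 (−0.44 over the 6 arrays; 0 called, 0 at an unadjusted p under 0.05), and their mean level lay between 5.78 and 7.09 on treated and between 5.84 and 6.97 on vehicle arrays. Prom1, Cftr and Cd24, genes of the duct cell membrane, differed by −0.99, −0.60 and −0.78. Erythroid markers, which also bear on Aqp1, had 5 of 7 genes lower and a median difference of −0.13 (−0.12 over the 6 arrays; 0 called, 2 at an unadjusted p under 0.05), and their mean level lay between 4.93 and 5.10 on treated and between 5.06 and 5.58 on vehicle arrays. Hbb, beta globin, averaged 8.94 ± 0.59 in treated and 10.75 ± 0.91 in vehicle livers (difference −1.80, limma adjusted p = 0.979), Alas2, the heme synthesis enzyme of red cell precursors, differed by −0.61 and Rhag, a red cell membrane protein, by 0.12. Rhag was at or below the 25th percentile on all 8 arrays, so its value is close to background. The Hbb probe set carries a suffix for probes shared between similar genes, so it may not separate the globin copies. The part of ducts and blood in the Aqp1 difference was not tested.

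Treated 4 showed the leukocyte and bile duct lists, among others, apart from the endothelial genes. On this array leukocyte markers stood at 7.10 and bile duct markers at 7.09, within or above the range of vehicle 1 to 3 (7.03 to 7.51 for leukocytes and 6.40 to 6.97 for ducts). The mean of the 8 endothelial genes was 6.92 on the same array, below the 7.52 to 7.77 of vehicle 1 to 3. Erythroid markers stood at 4.96 there, also below their 5.32 to 5.58 on vehicle 1 to 3. Sinusoidal markers, at 7.10, were below their 7.82 to 7.98 too. Stellate and smooth muscle markers, at 7.68, were within their 7.49 to 8.03, and junction partners, at 8.614, were above their 8.512 to 8.605. The part of cell content in these differences was not tested. Aqp1 had its highest treated values on this array, and Plvap and both Egfl7 probe sets their lowest.

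Stellate and smooth muscle markers had 9 of 13 genes lower and a median difference of −0.54 (−0.72 over the 6 arrays; 0 called, 2 at an unadjusted p under 0.05), with Acta2 at −0.67, Tagln at −1.08 and Col1a1 at −1.28. Their mean level lay between 7.06 and 7.68 on treated and between 7.28 and 8.03 on vehicle arrays. Hepatocyte markers had 10 of 14 genes lower and a median difference of −0.08 (−0.11 over the 6 arrays; 0 called, 0 at an unadjusted p under 0.05), with Apoa1 at −0.64, Pck1 at −0.41 and Hpd at 0.21.

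**Figure D5:**
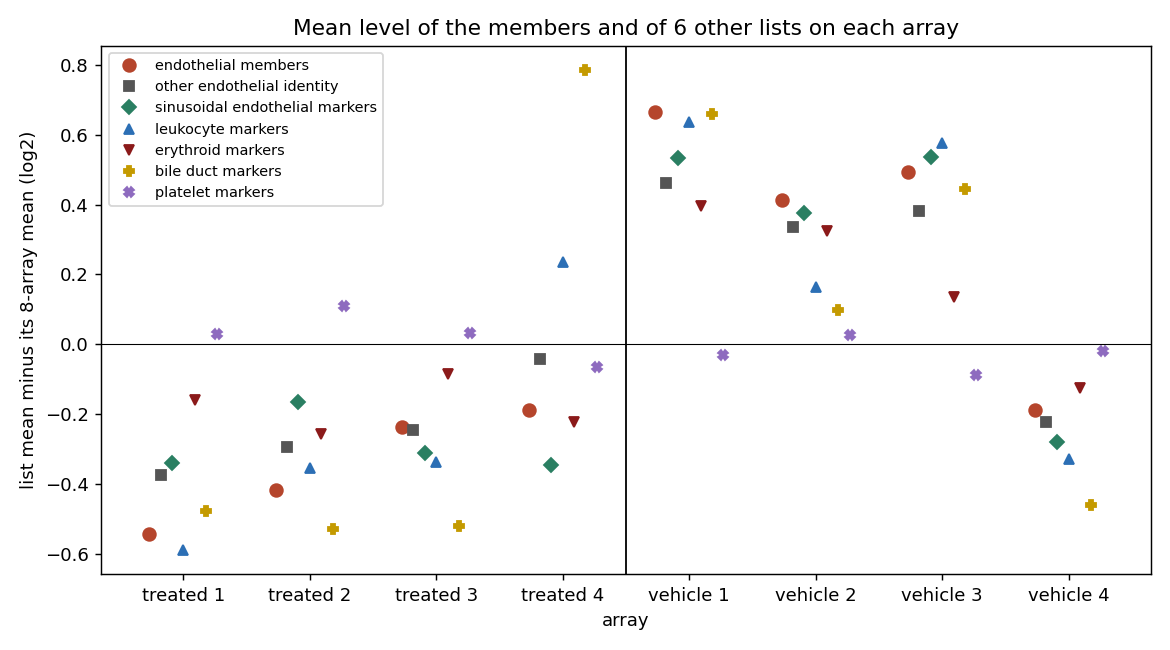
Mean log2 level of the 8 member genes and of 6 other lists on each array, minus the list's own mean over the 8 arrays; treated arrays are left of the line. The members and the other endothelial, sinusoidal and erythroid lists are high on vehicle 1 to 3 only. Leukocyte and bile duct markers are high on treated 4 as well, and platelet markers stay near 0.

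The likeness of the genes to each other was described by the correlation of each with the mean of the other 7 over the 8 arrays, which hold 1 nearly duplicated pair. Each gene was centred and scaled by its SD before this mean was taken. The correlation was highest for Icam2 (r = 0.911) and Aqp1 (0.897), and 0.834 for Cldn5, 0.810 for Plvap, 0.777 for Esam and 0.755 for Pecam1. Egfl7 (0.334) and Vwf (0.277) followed the others least. Over the 6 arrays Egfl7 stood at 0.888, while Vwf stayed at 0.272, so the low value of Egfl7 rested on treated 3 and vehicle 4. Group means were not removed first, so the group difference on which the genes were chosen tends to raise all these correlations.

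Pattern was compared with the mean of the 8 genes over the 8 arrays, each gene centred and scaled by its SD first. Among 8488 other genes with a mean level of at least 6, the 6 nearest to it were Slfn4 (r = 0.984), Napsa (0.980), Hba-a3 (0.970), Nr4a2 (0.968), Rasip1 (0.968) and Hbb (0.966). Over the 6 arrays the same 6 genes had r between 0.966 and 0.989. Of these only Rasip1, a Ras-interacting protein needed for vessel lumens, is an endothelial gene. Hba-a3 and Hbb encode globin chains, Slfn4 is a schlafen gene known in mouse myeloid cells, Napsa an aspartic protease and Nr4a2 an immediate early nuclear receptor. The median r of all 8488 genes was 0.015, and 75 genes (0.884%) were above 0.9. The mean of the 8 genes carries the group difference they were chosen on, so genes with a like difference tend to rank high. Rasip1 averaged 6.36 ± 0.22 in treated and 6.82 ± 0.18 in vehicle livers (difference −0.46, SE 0.14).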

How the data were processed

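Total RNA of 8 frozen livers was labelled from an oligo(dT) primer and hybridized to Rat2302 arrays, per the labels' protocols, so that signal depends on RNA integrity and distance from the 3′ end. The deposited values are log2 intensities, which the authors made with affy and RMA, per the submitters' processing notes, which give no versions. RMA draws differences of dim probe sets towards 0. Of 31099 probe sets, 57 controls were left out. In the platform annotation 20826 of the other 31042 had 1 symbol, 436 several and 9780 none. Groups and replicate numbers came from sample titles. No column was left unused (0).

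Differences are treated minus vehicle from limma 3.58.1 (R 4.3.3; lmFit and eBayes, no covariate, 4 arrays per group), with Benjamini-Hochberg adjustment over 31042 probe sets and a threshold of 0.05; this fit was also tested on simulated data with known differences. SEs and 95% intervals use moderated variances. A gene was represented by its probe set with the highest mean. Arrays carry no counts, so their number limits the precision. The design text counts 4 rats in each group, so p-values measure the spread between rats, as far as treated 3 and vehicle 4 are separate samples.

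The members and the 14 other lists (other endothelial identity, junction partners, other claudins, other aquaporins, Robo and Slit genes, caveola genes, and sinusoidal, lymphatic, platelet, leukocyte, bile duct, erythroid, stellate and smooth muscle, and hepatocyte markers) were chosen with earlier results of these data known. Named are all member probe sets, the 3 genes of each list with the smallest unadjusted p, and the 6 genes nearest in pattern (mean of at least 6). A few other list members were picked after values were seen. Tie1, Tek, the catenins and Tjp1 were picked for their role, and Aplnr, S1pr1, She and Cd52 for their values. Alternatives were quantile normalization, median centring, filters at the 40th percentile or a mean of 6, trend and robust eBayes, array weights, replicate or spike-in blocks, averaging a gene's probe sets, and leaving out arrays. Promoter windows are those of RefSeq (GRCr8).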

Additional observations from a re-analysis of the deposited data

Results flagged for a closer look

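Within groups of 4 arrays, Dixon's test singled out vehicle 4 at 2 of 22 groups of member values, where chance alone singles out about 1 in 20. The 22 groups are not independent, since some genes have 2 probe sets, and the values are among those the genes were chosen on, so this is a description only. Vehicle 4 stood at 4.05 for Cldn5 (1374104_at), against 6.60 to 6.82 on the other 3 vehicle arrays. It stood at 6.84 for Icam2 (1389235_at), against 7.59 to 7.69. On treated 3, the array nearly identical to it, the values were 3.81 and 6.86.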

How the results depend on the processing

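The member median stayed below 0 under the alternatives it was recomputed for, which leave out array weights and the other eBayes settings, from −0.70 without both nearly identical arrays to −0.40 when a gene's probe sets were averaged. The filter at a mean of 6 left 7 genes, without Cldn5, with a median of −0.44. Leaving out 1 array gave −0.67 to −0.44 and 7 to 8 genes lower. Of 162 repeats for single member probe sets, 161 kept their sign within 1 SD, and Vwf turned to 0.0039 without treated 2 (range −0.44 to 0.0039). The count of called probe sets was 3 without both nearly identical arrays, and 0 to 11 when 1 array was left out (11 without vehicle 4, 0 in the other 7, where 538 to 2885 had an unadjusted p under 0.05). It was 0 under the remaining alternatives, where 481 (filter at a mean of 6) to 2047 (array weights) probe sets had an unadjusted p under 0.05. With the replicate block 0 probe sets were called (785 at an unadjusted p under 0.05, against 1220 without the block) and the member median was −0.54; same-numbered arrays did not deviate together (r −0.62 to 0.04), and only treated 2 correlated best with its own number.

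Medians near 0 turned sign. Other claudins ranged from −0.040 to 0.066 with 1 array left out (−0.0051 without treated 1). Other aquaporins were at 0.32 with the filter at a mean of 6 and at 0.014 without both nearly identical arrays. Robo and Slit genes were at 0.0028 with median centring and at −0.073 to 0.063 with 1 array left out. Caveola genes were at −0.013 with quantile normalization, −0.011 without both nearly identical arrays and −0.10 to 0.073 with 1 array left out. With 1 array left out, the median of bile duct markers ranged from −0.70 (without treated 4) to −0.18 (without vehicle 1), of lymphatic markers from −0.48 (without vehicle 2) to −0.11 (without treated 4), of stellate and smooth muscle markers from −0.79 (without vehicle 4) to −0.25 (without treated 3), of junction partners from −0.18 to −0.016, of erythroid markers from −0.15 to −0.0034, of hepatocyte markers from −0.12 to −0.0087 and of platelet markers from 0.040 (without vehicle 3) to 0.15 (without treated 4). With the filter at a mean of 6 it was −1.80 for erythroid markers, 0.34 for other claudins and 0.12 for caveola genes. With the filter at the 40th percentile it was −0.37 for erythroid markers, 0.20 for other claudins and −0.27 for Robo and Slit genes. The cause was not tested. Precision is limited by 4 arrays per group and by signal near background, as for the second Icam2 probe set.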
